A study of Homo sapiens with 18 samples.

Results

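Transcripts were compared between 2 human oral squamous cell carcinoma (OSCC) lines, CAL27 and HSC-3, for how far their responses to ICG-001 differed. ICG-001 is a compound that keeps β-catenin from the CREB-binding protein (CBP), a histone acetyltransferase that β-catenin recruits to its target genes. Cells of each line, 3 wells to a group, had been kept for 48 to 64 h with 10 μM ICG-001 or with the solvent DMSO alone at 0.1%, and total RNA went onto 3 Affymetrix Human Gene 2.0 ST arrays for each of the 4 groups. These 12 arrays, of 18 in the series, were normalized as 1 set, and all levels are robust multi-array average (RMA) values on the log2 scale. Each line stands for 1 tumor, and nothing in the sample records says that the 3 arrays of a group came from separate cultures, so that p-values measure only the spread between these arrays. Of 23786 probesets in the table, 13493 exceeded the median of an array in at least 1 case among the 12 and were tested, of which 12837 had a gene symbol.

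The quantity studied was the difference between the lines, which is the log2 change on ICG-001 in HSC-3 cells minus that in CAL27 cells. A gene with a positive difference rose further, or fell less, in HSC-3 cells. A call needed an adjusted p no higher than 0.01 and a size of 1.5-fold or more in a limma fit over the 12 arrays. Within a line, a gene is said to have risen or fallen where its adjusted p was 0.05 or less in the fit of that line. Called genes were then classed by what each line did: those that rose in 1 line and fell in the other (opposite directions), and those that were called in 1 line while the other line had an adjusted p above 0.05 and a 95% confidence interval wholly inside 1.5-fold (HSC-3 only, CAL27 only).

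As background, squamous cells of the oral lining carry programs that respond to cytokines and to contact. NF-κB switches on chemokines and acute phase proteins, interferons switch on antiviral genes, and the MAPK cascade switches on its own inhibitors. Differentiating squamous cells secrete S100 proteins and protease inhibitors, while β-catenin with LEF/TCF factors drives Wnt targets. The lines carried the markers of their tissue: 10 measured markers of squamous epithelium had a mean log2 level between 9.42 and 10.21 on the 12 arrays. The marker lists of fibroblasts, leukocytes, endothelium and melanocytes had means between 3.10 and 4.37, below the array medians of 4.73 to 4.77. Single members lay higher. The median was exceeded on at least 1 array by 1 of 9 fibroblast, 6 of 10 leukocyte, 3 of 8 endothelial and 1 of 5 melanocyte markers. The leukocyte marker CD14 had a called difference of the CAL27 only class. Replicate arrays correlated between 0.9935 and 0.9955 over probesets. In RNA from whole wells, fewer cells of a kind and less RNA per cell cannot be told apart.

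A difference between the lines was called for 1570 of 13493 probesets (11.6%). It was more positive in HSC-3 cells for 876 (6.49%) and more negative for 694 (5.14%). The HSC-3 response was the larger: 3271 probesets rose (24.2%) and 3180 fell (23.6%) in HSC-3 cells, against 719 (5.33%) and 796 (5.90%) in CAL27 cells. At the stricter thresholds of a call, 2297 (17.0%) moved in HSC-3 cells and 453 (3.36%) in CAL27 cells. Both lines were given the same concentration of ICG-001, and the paper reports that growth of HSC-3 cells was more sensitive to it than growth of CAL27 cells. The classes below thus compare the lines at equal concentration and not at equal effect on growth. How far this lies behind the larger HSC-3 response was not tested. The standard error of a response had a median of 0.0867 for HSC-3 and 0.1051 for CAL27 cells, and that of the difference a median of 0.141. Without CAL27 DMSO replicates 1, 2 or 3 the CAL27 calls numbered 272, 168 and 250, and without CAL27 ICG-001 replicates 1, 2 or 3 they numbered 183, 213 and 157.

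The called genes fell into unequal classes. Opposite directions were taken by 147 probesets (1.09% of those tested), 85 of them rising in HSC-3 and falling in CAL27 cells and 62 the reverse. A further 764 moved in HSC-3 cells only (5.66%), of which 429 rose and 335 fell. Only 69 moved in CAL27 cells only (0.511%), of which 43 fell and 26 rose. The same direction with a larger change in HSC-3 cells held for 169, and with a larger change in CAL27 cells for 16. The remaining 405 met none of these rules, of which 263 had a call in neither line on its own.

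**Figure D1:**
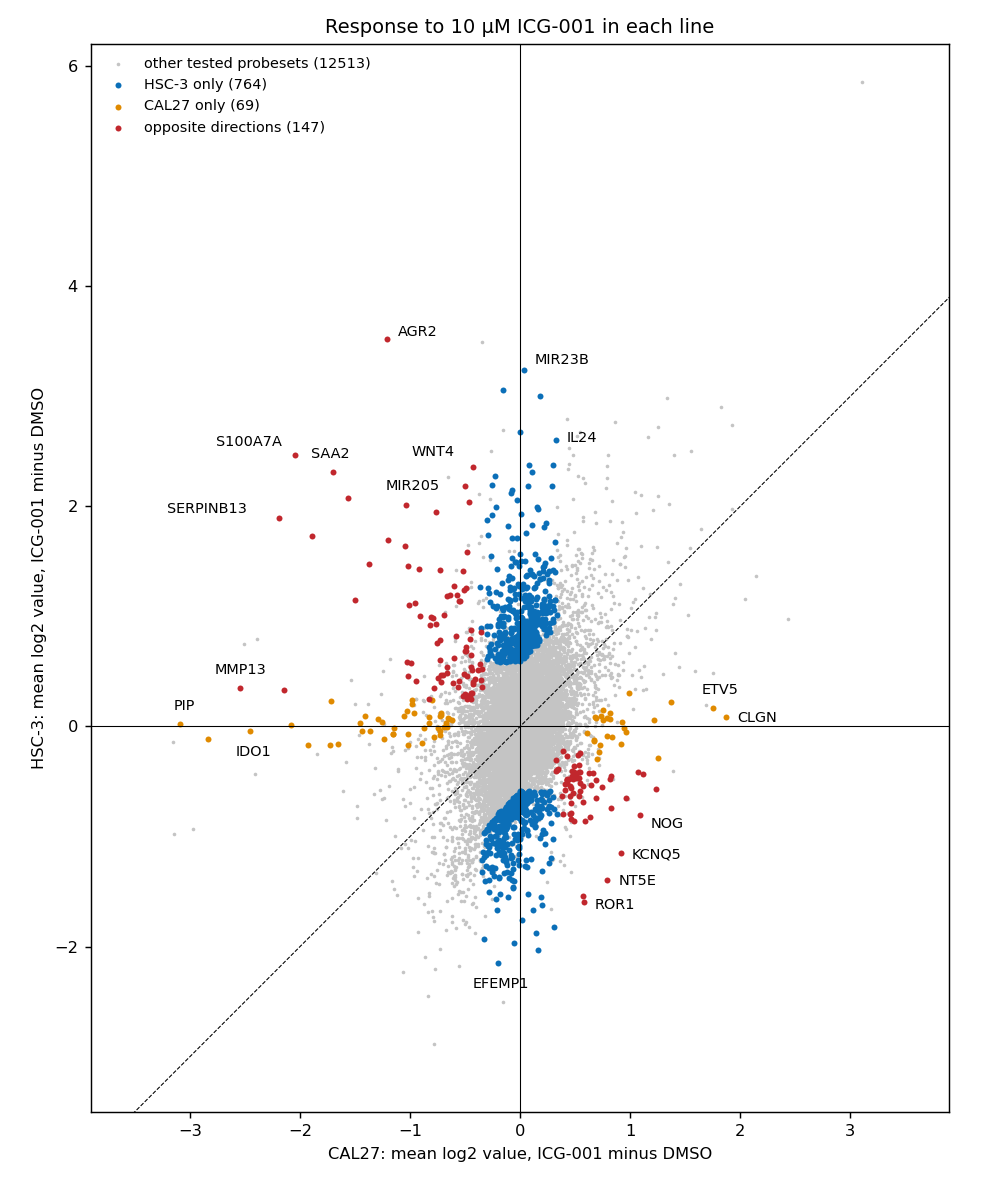
Log2 change on ICG-001 in CAL27 cells (x axis) and in HSC-3 cells (y axis) for 13493 tested probesets, where a point is 1 probeset and the dashed line marks equal changes. The 147 genes of opposite direction fill the upper left and lower right, the 764 HSC-3 only genes lie along the vertical axis and the 69 CAL27 only genes along the horizontal axis.

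Genes that rose in HSC-3 and fell in CAL27 cells included secreted proteins of squamous and mucosal surfaces. AGR2, a protein disulfide isomerase of secretory cells, had the largest difference of all tested genes, 4.73 (standard error 0.17, adjusted p = 9.7e-08). Its log2 levels were 4.29, 4.07 and 4.64 on the HSC-3 DMSO arrays and 7.79, 7.85 and 7.90 on HSC-3 ICG-001. In CAL27 cells they were 6.40, 6.42 and 6.49 on DMSO and 5.34, 5.17 and 5.17 on ICG-001. The groups overlapped in neither line, and the order of the lines was turned over, with CAL27 above HSC-3 on DMSO and below it on ICG-001.

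The S100 cluster on chromosome 1 behaved alike over 3 of its antimicrobial and chemotactic members. S100A7 (psoriasin) read 6.52, 6.25 and 6.43 in HSC-3 cells on DMSO and 8.27, 8.05 and 8.05 on ICG-001. In CAL27 cells it read 8.77, 9.45 and 9.73 on DMSO and 6.92, 7.85 and 7.50 on ICG-001. The responses were 1.73 and -1.89 on the log2 scale, with no overlap in either line. S100A7A, a near copy of S100A7 whose probes may read both, changed by 2.47 and -2.04. S100A8, a subunit of calprotectin, changed by 1.15 in HSC-3 and -1.5 in CAL27 cells. Its partner subunit S100A9 fell in CAL27 cells alone, from 8.95, 9.15 and 9.36 to 7.84, 7.56 and 7.97, while HSC-3 arrays lay between 7.78 and 7.99 in both groups. Of 11 epidermal S100 genes tested, 5 had a called difference, 5 of them positive, beside 6.49% positive among all tested probesets.

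Among the serpins of clade B, inhibitors that squamous cells make against proteases, SERPINB13 moved furthest apart. It rose in HSC-3 cells from 5.59, 5.79 and 5.98 to 7.66, 7.63 and 7.76. It fell in CAL27 cells from 7.05, 7.08 and 6.99 to 4.54, 4.77 and 5.23, so that the difference was 4.09 (standard error 0.21, adjusted p = 5.9e-07). SERPINB3 and SERPINB4, which encode the squamous cell carcinoma antigens and are close enough for their probes to be shared, fell in CAL27 cells, with changes of -2.51 and -2.39. In HSC-3 cells they were near the bottom of the range, with SERPINB3 at 1.19, 1.98 and 2.26 on DMSO and 2.23, 2.76 and 2.68 on ICG-001, which missed the test (adjusted p = 0.068). Of 8 such serpins tested, 5 had a called positive difference and 1, SERPINB7, a called negative one (all tested probesets, 6.49% and 5.14%), since it fell by 2.17 in HSC-3 and by 0.56 in CAL27 cells.

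Other genes of this direction were KRT15, a keratin of basal cells, with changes of 2.01 in HSC-3 and -1.03 in CAL27 cells, and PGLYRP4, a peptidoglycan recognition protein, with 1.70 and -1.20. KITLG, the ligand of the KIT receptor, changed by 1.00 and -0.91, and TLR3, a receptor of double-stranded RNA, by 0.78 and -0.72. The non-coding RNA LUCAT1 changed by 1.47 and -1.37, and the microRNA precursor MIR378D2 by 2.08 and -1.57. For these 6 genes the arrays on DMSO and ICG-001 did not overlap in either line, and the class held when any array was left out. MMP13, a collagenase, shows the unequal form of the pattern: it fell from 7.64, 7.27 and 7.33 to 4.93, 4.75 and 4.92 in CAL27 cells and rose by 0.35 in HSC-3 cells (adjusted p = 0.013). WNT4 shows the reverse imbalance, with a rise of 2.36 in HSC-3 cells and a fall of 0.43 in CAL27 cells (adjusted p = 0.039) that was lost without CAL27 DMSO replicates 2 or 3 or any CAL27 ICG-001 replicate, while its difference of 2.79 stayed called.

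**Figure D2:**
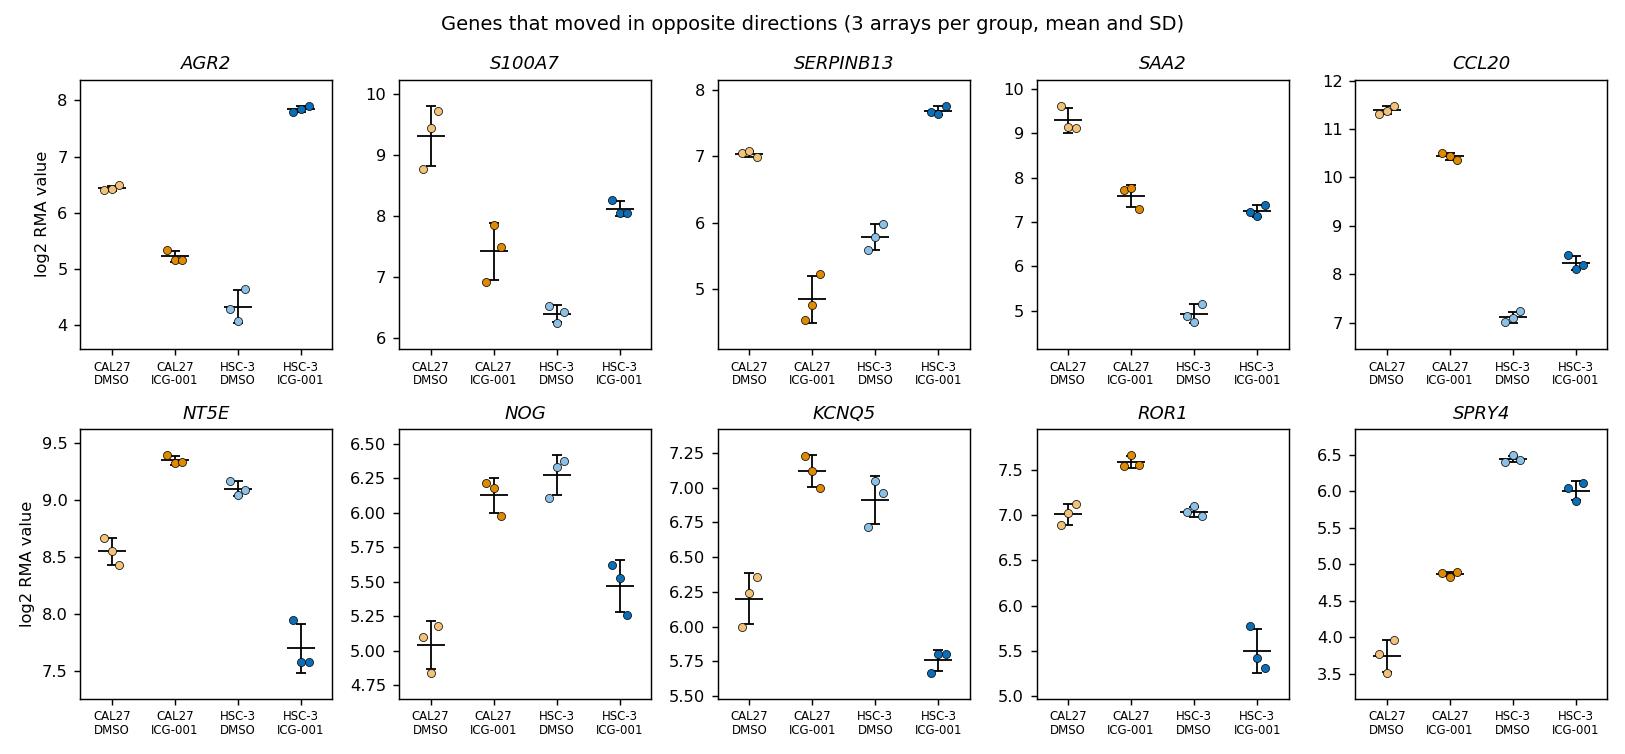
Log2 RMA value (y axis) of 10 genes of opposite direction in the 4 groups (x axis), where points are arrays and bars the mean and SD of 3 arrays. The upper 5 genes rose in HSC-3 and fell in CAL27 cells, AGR2 to between 7.79 and 7.90 on HSC-3 ICG-001, and the lower 5 did the reverse.

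Chemokines and acute phase genes, most of them NF-κB targets, parted in the same sense. CCL20, which attracts T cells and dendritic cells through CCR6, rose in HSC-3 cells from 7.01, 7.09 and 7.24 to 8.40, 8.11 and 8.20. It fell in CAL27 cells from 11.32, 11.38 and 11.48 to 10.51, 10.44 and 10.35. The neutrophil chemokine CXCL8 changed by 1.20 in HSC-3 and -0.64 in CAL27 cells, and the acute phase protein SAA2 by 2.31 and -1.70. SAA1, which is nearly identical to SAA2, changed by 0.58 and -0.99. CAL27 cells were the higher line for all 4 on DMSO, and on ICG-001 the gaps were smaller: the SAA2 levels were 9.62, 9.14 and 9.13 against 4.89, 4.75 and 5.16 on DMSO, and 7.71, 7.76 and 7.30 against 7.23, 7.13 and 7.38 on ICG-001. TNIP3, which restrains NF-κB signaling, also rose by 1.43 in HSC-3 and fell by 0.92 in CAL27 cells.

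The lists of these genes were written with earlier results of these arrays known and got no test of their own. Of 13 epithelial chemokines tested, 9 had a called positive difference and 0 a negative one, beside 6.49% and 5.14% of all probesets. Their median response was 0.35 for HSC-3 and -0.48 for CAL27 cells, where that of all tested probesets was 0.00 in each line. Of 28 NF-κB and acute phase genes, 16 had a called positive difference and 2 a negative one. In HSC-3 cells 21 of the 28 rose and 1 fell, and in CAL27 cells 5 rose and 3 fell. The shares of all tested probesets that rose and fell were 24.2% and 23.6% in HSC-3 and 5.33% and 5.90% in CAL27 cells. The complement genes CFB and C1S were of the HSC-3 only class, with rises of 2.27 and 1.71 against changes of -0.23 and -0.02. IL6 rose in both lines, by 1.99 in HSC-3 and by 0.33 in CAL27 cells (adjusted p = 0.045), and PTX3 had a called difference of the other sign, since it rose by 0.72 in CAL27 cells against -0.35 in HSC-3 cells (adjusted p = 0.087).

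The neighboring chemokine genes CXCL1, CXCL2 and CXCL3 on chromosome 4, ligands of the CXCR2 receptor, were split between the lines although their sequences are alike. CXCL1 fell in CAL27 cells from 10.33, 10.22 and 10.30 to 9.32, 9.0 and 9.11, while in HSC-3 cells it read 9.99, 10.11 and 9.97 on DMSO and 9.96, 10.00 and 10.07 on ICG-001. CXCL2 rose in HSC-3 cells from 4.99, 5.34 and 5.38 to 7.47, 7.41 and 7.42, with a change of -0.26 in CAL27 cells (95% confidence interval -0.54 to 0.02). CXCL3 read 5.79, 4.82 and 4.76 in HSC-3 cells on DMSO and 6.72, 6.74 and 7.19 on ICG-001, a rise of 1.76 against 0.05 in CAL27 cells. CXCL1 thus moved in CAL27 cells only and CXCL2 and CXCL3 in HSC-3 cells only, with differences of 1.13, 2.46 and 1.70 that were called. The CXCL1 class held without any array. CXCL2 left its class without CAL27 DMSO replicates 2 or 3 or CAL27 ICG-001 replicates 1 or 2, while its difference stayed called. The CXCL3 difference kept its call in 9 of 12 fits with an array left out and lost it without CAL27 DMSO replicate 1, CAL27 ICG-001 replicate 1 or HSC-3 ICG-001 replicate 3. Since the genes are close copies, probes shared among them could move signal from 1 to another.

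The 250 bases before the annotated start of these 3 genes are shown because the genes differ in which line moved while their promoters are alike, with 71.4% identical bases between CXCL1 and CXCL2, 81.4% between CXCL1 and CXCL3 and 73.3% between CXCL2 and CXCL3. They are RefSeq sequences of GRCh38.p14, at chr4:73869143-73869392 on the plus strand for CXCL1 and, on the minus strand, at chr4:74099196-74099445 for CXCL2 and chr4:74038690-74038939 for CXCL3. Capitals mark matches to a form of the NF-κB motif (GGG, any 3 bases, then TTCC), which overlap here on both strands.
CXCL1: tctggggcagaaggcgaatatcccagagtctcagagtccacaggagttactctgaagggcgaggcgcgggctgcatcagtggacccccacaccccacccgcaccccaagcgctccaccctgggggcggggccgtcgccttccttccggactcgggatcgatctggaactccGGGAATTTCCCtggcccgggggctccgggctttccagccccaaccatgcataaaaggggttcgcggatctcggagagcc
CXCL2: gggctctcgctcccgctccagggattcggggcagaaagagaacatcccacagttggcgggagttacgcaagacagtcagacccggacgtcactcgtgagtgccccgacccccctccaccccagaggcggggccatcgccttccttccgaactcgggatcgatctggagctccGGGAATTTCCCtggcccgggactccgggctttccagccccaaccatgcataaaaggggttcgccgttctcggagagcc
CXCL3: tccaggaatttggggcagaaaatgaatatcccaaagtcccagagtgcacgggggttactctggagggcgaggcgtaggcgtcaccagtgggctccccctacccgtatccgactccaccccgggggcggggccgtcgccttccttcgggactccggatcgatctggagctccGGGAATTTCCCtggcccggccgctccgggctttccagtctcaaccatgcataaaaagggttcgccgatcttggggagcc
The match began 79 bases before the start in CXCL1, 78 in CXCL2 and 79 in CXCL3. Of 27305 promoters of this length, 5.61% held the motif on either strand, and of 10163 promoters of tested genes 6.68%. The share was 6.56% of 61 for genes that rose in HSC-3 and fell in CAL27 cells, 9.20% of 337 for genes that rose in HSC-3 cells only, and 2.86% of 35 for genes that fell in CAL27 cells only. CCL20 and CXCL10 held 1 match each, and CXCL8, S100A7, S100A8, AGR2 and CFB held no match to this form in this window. The CXCL8 window holds tggaatttcc, which misses this form at its first base. Other forms of the motif were not searched, so a promoter without a match may still hold an NF-κB site.

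The interferon response genes gave the same sense of difference, with more falls in CAL27 than in HSC-3 cells. Of 35 tested, 18 fell and 0 rose in CAL27 cells, against 7 that rose and 7 that fell in HSC-3 cells, and 12 had a called positive difference against 0 negative. The background was 5.90% falling and 5.33% rising for CAL27 cells, with 24.2% rising and 23.6% falling for HSC-3 cells, so that the HSC-3 counts were near the background. A called difference was positive for 6.49% and negative for 5.14% of all tested probesets. On DMSO 30 of the 35 were higher in CAL27 cells, beside 30.2% of all tested probesets. TRIM22, a restriction factor of viruses, took opposite directions, with 7.39, 7.47 and 7.49 rising to 8.31, 8.53 and 8.50 in HSC-3 cells and 7.27, 7.47 and 7.47 falling to 6.59, 6.64 and 6.56 in CAL27 cells. On DMSO its level differed little between the lines (0.05, adjusted p = 0.66). OAS1, which senses double-stranded RNA, fell in CAL27 cells only, by 1.03. IFIT1, which binds viral RNA caps, fell by 1.58 in CAL27 cells and changed by -0.33 in HSC-3 cells (adjusted p = 0.095). IRF1, a transcription factor of interferon responses, rose by 0.93 in HSC-3 cells only.

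Genes that fell in HSC-3 and rose in CAL27 cells had a median difference of -1.07, against 1.47 for the genes that did the reverse. NT5E (CD73), which turns AMP to adenosine at the cell surface, fell in HSC-3 cells from 9.17, 9.04 and 9.09 to 7.95, 7.58 and 7.58. It rose in CAL27 cells from 8.67, 8.55 and 8.43 to 9.39, 9.32 and 9.33, a difference of -2.19 (standard error 0.15, adjusted p = 2.7e-06). ROR1, a receptor of WNT5A, had close levels in the lines on DMSO, 7.03, 7.10 and 6.99 in HSC-3 and 6.89, 7.02 and 7.12 in CAL27 cells. On ICG-001 it read 5.77, 5.42 and 5.31 in HSC-3 and 7.54, 7.66 and 7.55 in CAL27 cells. The lines thus parted on the drug from levels that did not differ beyond their spread on DMSO (0.03, adjusted p = 0.83).

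NOG, the secreted antagonist of bone morphogenetic proteins, read 6.11, 6.33 and 6.38 in HSC-3 cells on DMSO and 5.62, 5.53 and 5.26 on ICG-001. In CAL27 cells it rose from 5.10, 4.84 and 5.18 to 6.22, 6.18 and 5.98. The higher line changed place, from HSC-3 on DMSO to CAL27 on ICG-001. KCNQ5, a voltage-gated potassium channel, changed by -1.15 in HSC-3 and 0.92 in CAL27 cells. KCNQ5-IT1, a transcript named from an intron of that gene, fell by 2.03 in HSC-3 cells against 0.16 in CAL27 cells (95% confidence interval -0.19 to 0.50), so that gene and intronic transcript fell together in HSC-3 cells and only the gene rose in CAL27 cells. AKAP12, a scaffold of protein kinase A, changed by -1.60 in HSC-3 and 0.59 in CAL27 cells. MICAL2, which oxidizes actin, changed by -0.86 and 0.59, the adhesion adaptor FERMT2 by -0.59 and 0.54, and SEMA7A, a membrane-anchored semaphorin, by -0.82 and 0.64. The 6 genes NT5E, NOG, KCNQ5, AKAP12, MICAL2 and SEMA7A were also past the thresholds of a call in both lines.

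Transcripts of feedback genes and targets of the MAPK cascade moved unlike in the lines, and the activity of the cascade was not measured. Of 19 tested, 8 rose and 0 fell in CAL27 cells, while 7 rose and 6 fell in HSC-3 cells, and 7 had a called negative difference against 2 positive. Of all tested probesets 5.33% rose and 5.90% fell in CAL27 cells, 24.2% rose and 23.6% fell in HSC-3 cells, and 5.14% had a called negative and 6.49% a called positive difference. SPRY4, an inhibitor of receptor tyrosine kinase signaling, rose in CAL27 cells from 3.77, 3.52 and 3.96 to 4.88, 4.83 and 4.89 and fell in HSC-3 cells from 6.40, 6.49 and 6.43 to 6.05, 5.87 and 6.11. The ERK phosphatase DUSP6 changed by 0.53 in CAL27 and -0.35 in HSC-3 cells, and TGFA, a ligand of the epidermal growth factor receptor, by 0.57 and -0.69. ETV5, an ETS factor induced by ERK, rose in CAL27 cells from 4.48, 4.89 and 4.36 to 6.40, 6.21 and 6.36, against a change of 0.16 in HSC-3 cells (95% confidence interval -0.16 to 0.49). Its relative ETV4 rose by 1.21 in CAL27 cells against 0.06 in HSC-3 cells, but that difference of -1.16 held its call in only 5 of 12 fits with an array left out, losing it without any CAL27 ICG-001 replicate or HSC-3 replicates 1 or 3 of either group. SPRY2 rose in both lines, by 0.86 for CAL27 and 0.57 for HSC-3 cells, with no called difference. The exceptions were EGR1 and DUSP1, immediate early genes with called positive differences, which rose by 1.04 and 1.31 in HSC-3 cells. DUSP6 left its class without CAL27 ICG-001 replicates 1 or 2, and ETV5 without HSC-3 DMSO replicates 1 or 2 or HSC-3 ICG-001 replicate 3, with each difference still called.

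Wnt ligands and regulators moved in several ways. WNT5A, a ligand that mostly acts without β-catenin, rose in HSC-3 cells from 7.71, 7.99 and 7.72 to 8.23, 8.20 and 8.39 and fell in CAL27 cells from 5.13, 5.12 and 5.22 to 4.17, 4.50 and 4.66. WNT7A did the reverse, with -0.47 in HSC-3 and 0.51 in CAL27 cells, as did the secreted Dickkopf relative DKK3, with -0.86 and 0.49, and the cyclin CCND1, with -0.51 and 0.55. CCND1 levels were 11.15, 11.10 and 11.07 in HSC-3 cells on DMSO, 10.57, 10.70 and 10.52 on ICG-001, and 9.52, 9.81 and 9.79 in CAL27 cells on DMSO, 10.19, 10.31 and 10.25 on ICG-001. These 3 lay close to the limit in CAL27 cells, and all 3 left their class without CAL27 ICG-001 replicate 2 or 3. DKK3 and WNT7A also left it without CAL27 DMSO replicate 1 or 3, and WNT7A without HSC-3 DMSO replicate 1 or 3 or HSC-3 ICG-001 replicate 1, while the 3 differences stayed called in the 12 fits. Of 22 Wnt feedback genes and targets, 7 had a called negative difference and 2 a positive one, beside 5.14% and 6.49% of all tested probesets. In HSC-3 cells 13 fell and 6 rose, where 23.6% of all tested probesets fell and 24.2% rose. In CAL27 cells 4 fell and 3 rose, where 5.90% of all tested probesets fell and 5.33% rose.

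On DMSO the lines were far apart, with 4069 probesets higher in CAL27 (30.2%) and 4294 higher in HSC-3 cells (31.8%). Of the 85 genes that rose in HSC-3 and fell in CAL27 cells, 65 were higher in CAL27 cells on DMSO and 9 in HSC-3 cells. Their median gap, HSC-3 minus CAL27, went from -1.27 on DMSO to 0.45 on ICG-001, and the size of the gap was smaller on ICG-001 for 54 of the 85 (63.5%, beside 48.1% of all tested probesets). Of the 62 genes that did the reverse, 40 were higher in HSC-3 and 15 in CAL27 cells on DMSO, with a median gap of 0.57 on DMSO and -0.50 on ICG-001, and the gap was smaller on ICG-001 for 33 (53.2%), near the share of all tested probesets. The gap on DMSO uses the same DMSO arrays as the responses, so these values are a description, and an array that read high or low by chance would move both.

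**Figure D3:**
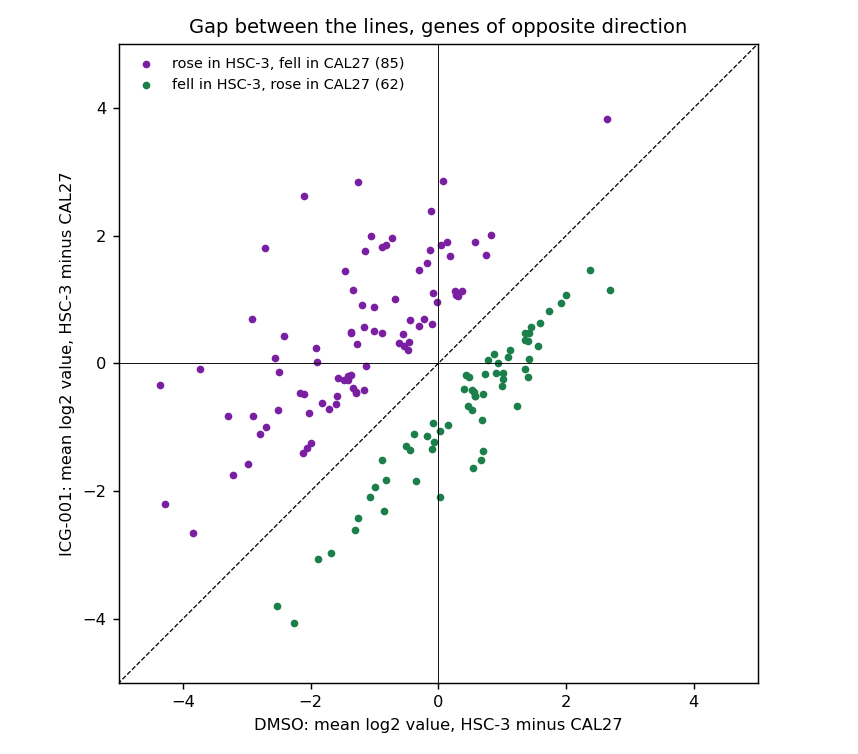
Gap between the lines (HSC-3 minus CAL27, log2) on DMSO (x axis) and on ICG-001 (y axis) for the 147 genes of opposite direction, where a point is 1 probeset and the dashed line marks an unchanged gap. The 85 genes that rose in HSC-3 cells lie above the line, mostly left of 0 on DMSO, and the 62 that fell in HSC-3 cells lie below it.

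Among genes that moved in HSC-3 cells only, the highest rises were those of microRNA precursors. MIR23B read 5.05, 5.10 and 5.09 in HSC-3 cells on DMSO and 8.11, 8.46 and 8.39 on ICG-001, a rise of 3.24. In CAL27 cells it read 5.55, 6.04 and 5.72 on DMSO and 5.46, 5.95 and 6.01 on ICG-001, which overlap. The neighboring MIR27B and MIR24-1 rose by 3.00 and 3.06 in HSC-3 cells and changed by 0.18 and -0.15 in CAL27 cells. These 3 hairpins lie in a cluster on chromosome 9 inside the gene AOPEP, MIR23B at chr9:95085208-95085304. AOPEP, which encodes an aminopeptidase, itself rose by 1.31 in HSC-3 cells only. A related cluster on chromosome 19, MIR23A, MIR27A and MIR24-2, rose by 1.71, 2.70 and 2.11 in HSC-3 cells, and its spanning non-coding gene MIR23AHG by 0.96. In CAL27 cells the 3 changed by -0.07, -0.16 and -0.38 and none passed the test. MIR23A was of the HSC-3 only class, while MIR27A, MIR24-2 and MIR23AHG had called differences but met none of the class rules.

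MIR21, a precursor long known from carcinomas, read 8.19, 8.30 and 8.15 in HSC-3 cells on DMSO and 10.15, 10.25 and 10.23 on ICG-001. In CAL27 cells it read 8.60, 8.26 and 8.29 on DMSO and 7.99, 8.28 and 8.24 on ICG-001. The gene VMP1, which spans MIR21, changed by 0.12 in HSC-3 cells (adjusted p = 0.18), and showed no rise beside that of MIR21. MIR224 rose by 2.31 in HSC-3 cells, with its spanning gene GABRE rising by 1.04. MIR205, which is typical of squamous epithelium, rose from 8.59, 8.62 and 8.56 to 10.78, 10.78 and 10.75 in HSC-3 cells and fell from 9.42, 9.44 and 9.36 to 8.91, 9.12 and 8.70 in CAL27 cells, where its adjusted p was 0.033. The fall was lost without any CAL27 DMSO replicate or CAL27 ICG-001 replicates 1 or 3, and the difference of 2.68 stayed called. Of 301 microRNA probesets tested, 20 had a called difference (6.64%, beside 11.6% of all probesets), 19 of them positive. The exception was MIR25 inside MCM7, with -0.97 for HSC-3 and 0.23 for CAL27 cells. The arrays do not separate a mature microRNA from its precursor or its spanning transcript, and the part of the spanning gene in each value was not tested.

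The mature forms below, from RefSeq (GRCh38.p14), are shown because the clusters on chromosomes 9 and 19 rose together and share their seeds (bases 2 to 8, in capitals), by which a microRNA pairs with its targets. A sequence was found for 18 of the 20 called precursors.
hsa-miR-23b-3p: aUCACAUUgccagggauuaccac
hsa-miR-23a-3p: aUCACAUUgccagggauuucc
hsa-miR-27b-3p: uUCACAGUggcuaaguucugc
hsa-miR-27a-3p: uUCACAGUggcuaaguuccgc
hsa-miR-24-3p: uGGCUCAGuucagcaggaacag
hsa-miR-205-5p: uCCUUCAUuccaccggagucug
hsa-miR-21-5p: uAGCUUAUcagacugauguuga
hsa-miR-224-5p: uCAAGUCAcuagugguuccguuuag
The form hsa-miR-24-3p is the same from MIR24-1 and MIR24-2, so that the 3p forms of both clusters give 1 seed for each of miR-23, miR-27 and miR-24, while the 5p forms of miR-27a and miR-27b differ in seed. The probes of a pair may be shared. MIR205, MIR21 and MIR224 share no seed with these or with each other.

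AKR1B15, an aldo-keto reductase, was also of the HSC-3 only class and rose from 2.89, 3.11 and 2.80 to 5.82, 5.29 and 5.72 in HSC-3 cells and changed by -0.00 in CAL27 cells (95% confidence interval -0.33 to 0.33), and its near copy AKR1B10 by 1.74 and -0.29. AKR1C2, which reduces steroid hormones, rose by 3.49 in HSC-3 cells against -0.34 in CAL27 cells, where its interval reached past 1.5-fold. The cytokine IL24 rose from 5.36, 5.21 and 5.39 to 7.92, 7.90 and 7.95, and the membrane mucin MUC1 from 6.91, 7.0 and 6.89 to 9.22, 9.35 and 9.36. In CAL27 cells IL24 changed by 0.33 and MUC1 by 0.08, and neither passed the test. TXNIP, which restrains glucose uptake, rose by 2.12 against -0.08, from 8.71, 8.57 and 8.65 to 10.78, 10.77 and 10.71 in HSC-3 cells. KLF9, a Krüppel-like factor, rose by 2.06 against -0.03, the pro-apoptotic BMF by 1.82 against -0.11 and filaggrin (FLG), a late epidermal protein, by 1.93 against 0.01. The chaperone DNAJB9, a target of the unfolded protein response, rose by 1.57 against -0.00.

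The genes that fell in HSC-3 cells only included matrix, membrane and cell cycle genes. EFEMP1, a fibulin of the extracellular matrix, fell from 8.88, 8.92 and 8.94 to 7.04, 6.63 and 6.63 in HSC-3 cells and changed by -0.20 in CAL27 cells, where it stood at 10.28 to 10.54 on the 6 arrays. ADD2, a spectrin-binding protein, fell by 1.97 against -0.05 and MFAP5, a microfibril protein, by 1.82 against 0.31. PDCD1LG2 (PD-L2), a ligand of PD-1, fell from 6.91, 7.03 and 6.83 to 5.40, 5.17 and 5.19 in HSC-3 cells, while CAL27 arrays lay between 5.53 and 5.95 in both groups. NRG1, a ligand of ERBB3, fell by 1.56 against -0.22. Of the cell cycle, E2F1 fell by 1.20 against -0.08 and PLK1, a mitotic kinase, by 1.5 against -0.28 (95% confidence interval -0.50 to -0.05). Most listed cell cycle genes with a called difference were not of this class but fell in both lines, and further in HSC-3 cells. Of the ribosome biogenesis genes, 28 of 33 fell there and 1 in CAL27 cells, and 9 had a called negative difference, where the shares of all tested probesets were 23.6%, 5.90% and 5.14%.

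**Figure D4:**
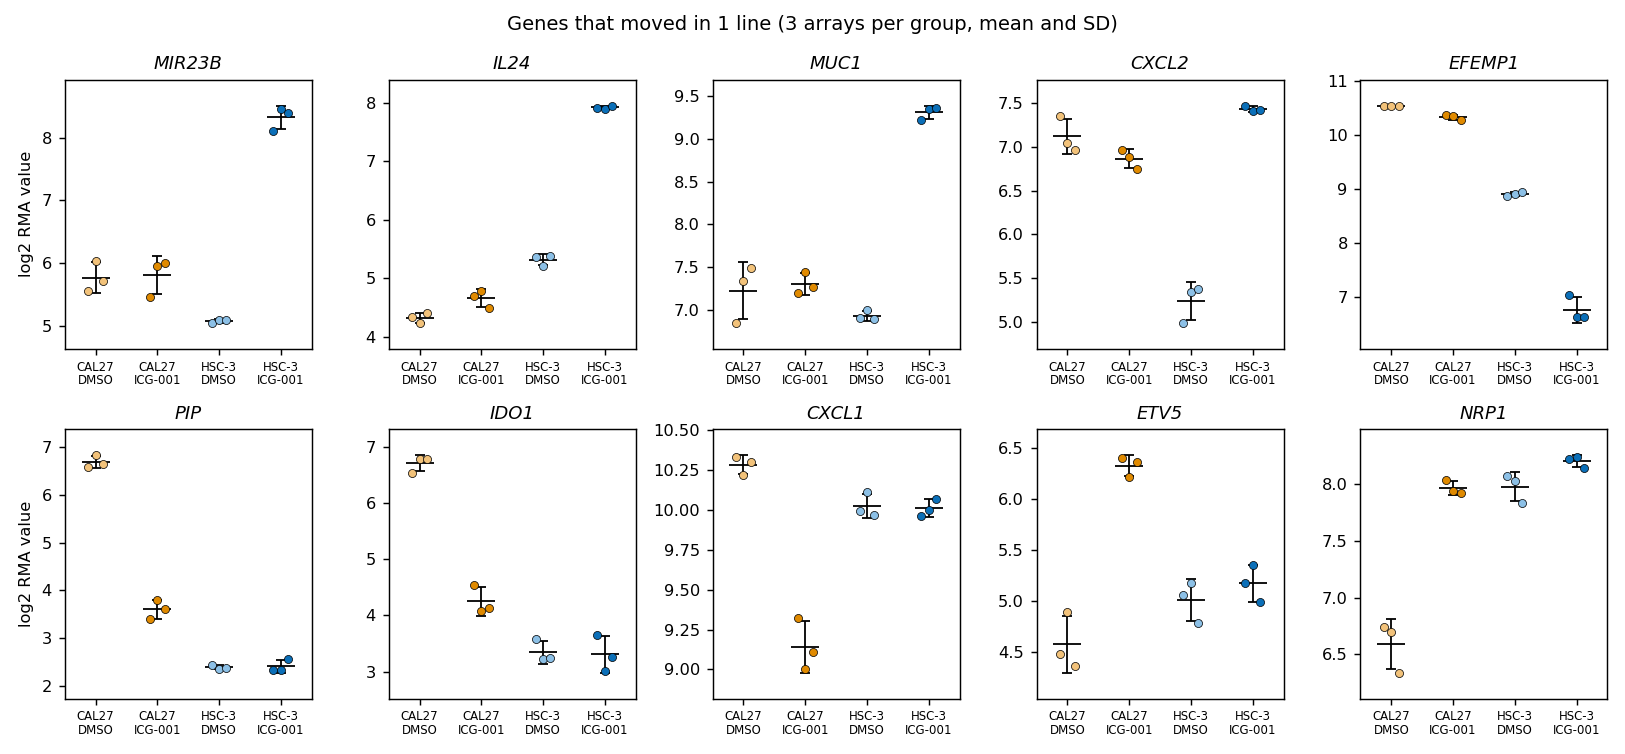
Log2 RMA value (y axis) of 10 genes that moved in 1 line, in the 4 groups (x axis), where points are arrays and bars the mean and SD of 3 arrays. MIR23B, IL24, MUC1, CXCL2 and EFEMP1 moved in HSC-3 cells and PIP, IDO1, CXCL1, ETV5 and NRP1 in CAL27 cells, where PIP fell to between 3.40 and 3.80.

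The genes that fell in CAL27 cells only were often genes with a higher level in CAL27 than in HSC-3 cells on DMSO. PIP, a secreted protein of exocrine glands, fell from 6.58, 6.83 and 6.65 to 3.40, 3.80 and 3.60 in CAL27 cells and stood between 2.33 and 2.57 on the HSC-3 arrays. IDO1, which breaks down tryptophan, fell from 6.54, 6.78 and 6.79 to 4.55, 4.08 and 4.13, with HSC-3 arrays between 3.01 and 3.65. The retinoic acid receptor RARB fell from 6.59, 6.46 and 6.03 to 4.44, 4.29 and 4.58, with HSC-3 arrays between 3.26 and 3.68. A gene at the bottom of the range in HSC-3 cells could not be seen to fall there. No HSC-3 array was above the array median for 29 of the 69 genes (42.0%), beside 5.15% of all tested probesets. Of 764 HSC-3 only genes, 65 had no CAL27 array above the median (8.51%, beside 5.75%). On DMSO 36 of the 43 genes that fell in CAL27 cells only stood above the HSC-3 level in CAL27 cells (83.7%, beside 30.2% of all tested probesets). The 26 that rose in CAL27 cells only did not share this. On DMSO 15 of them were higher in HSC-3 and 8 in CAL27 cells (57.7% and 30.8%, beside 31.8% and 30.2% of all tested probesets). The genes that fell in HSC-3 cells only leaned towards their own line too. Among these 335, 55.2% were higher in HSC-3 and 19.1% in CAL27 cells on DMSO, beside the same shares of all tested probesets. These gaps use the same DMSO arrays as the responses, so the values are a description. CXCL1, at 9.96 to 10.11 on the HSC-3 arrays, and SCD, the stearoyl-CoA desaturase, at 9.17 to 9.37, fell by 1.14 and 1.02 in CAL27 cells only and were well within range in both lines. The SCD difference lost its call without CAL27 DMSO replicate 2 or HSC-3 DMSO replicate 2. IDO1 left the class without HSC-3 DMSO replicates 2 or 3, and RARB without HSC-3 ICG-001 replicate 3, with the difference still called.

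The 26 genes that rose in CAL27 cells only included NRP1, a coreceptor of semaphorins and of vascular endothelial growth factor, from 6.74, 6.70 and 6.34 to 8.04, 7.94 and 7.92. It reached the level that HSC-3 cells held on DMSO, 8.07, 8.03 and 7.83. ALDH1A3, which makes retinoic acid, rose by 0.93 against 0.04 and ALDH3A1, an aldehyde dehydrogenase, by 0.92 against -0.16, of which ALDH3A1 left the class without 5 of the CAL27 arrays. CLGN, a chaperone best known from the testis, rose by 1.87 against 0.09. Where both lines moved the same way with the larger change in CAL27 cells, CYP24A1, which breaks down active vitamin D, fell by 2.98 in CAL27 and 0.93 in HSC-3 cells. The microtubule protein MAP1B rose by 2.44 and 0.97, from 5.88, 5.82 and 5.85 to 8.30, 8.19 and 8.35 in CAL27 cells.

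Retinoid and vitamin D genes were spread over the classes, as 9 of 16 had a called difference (beside 11.6% of all tested probesets), 6 positive and 3 negative. RARB and the retinol dehydrogenase DHRS9 fell in CAL27 cells, by 1.93 and 1.85. In HSC-3 cells DHRS9 changed by -0.25 (adjusted p = 0.040) and stood near the bottom of the range. RDH10, which oxidizes retinol, rose by 2.04 in HSC-3 and fell by 0.46 in CAL27 cells (adjusted p = 0.047), a fall that was lost without any CAL27 array, and DHRS3, which reduces retinal, rose by 1.53 in HSC-3 cells only. CRABP2, which carries retinoic acid to the nucleus, fell by 0.90 in HSC-3 cells only, a difference that lost its call without HSC-3 ICG-001 replicate 3.

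Over the gene lists, the median response of the 2 lines lay on either side of 0 for chemokines, clade B serpins (0.21 in HSC-3 and -0.71 in CAL27 cells) and secreted mucosal proteins (0.27 and -0.26). For NF-κB and acute phase genes the CAL27 median was near 0 (0.68 and -0.09), and for interferon response genes the HSC-3 median was (0.06 and -0.45). It was above 0 in both lines for NRF2 targets (0.60 and 0.14) and lysosomal genes (0.57 and 0.23), of which 10 of 23 and 7 of 24 had a called positive difference (6.49% of all tested probesets). Among 22 chaperones and other genes of the unfolded protein response, 15 rose and 1 fell in HSC-3 cells, with a median of 0.50. In CAL27 cells 5 rose and 5 fell, with a median of -0.01, and 9 differences were called positive and 0 negative. Of all tested probesets 24.2% rose and 23.6% fell in HSC-3 cells, and 5.33% rose and 5.90% fell in CAL27 cells. Called differences were positive for 6.49% and negative for 5.14% of them. The list of targets of YAP and TAZ, the effectors of the Hippo pathway, had 8 called negative differences and 0 positive of 22. Of all tested probesets 5.14% and 6.49% were so called. The 8 included the targets NT5E and CCN1, but also TEAD1, TEAD4 and the TEAD cofactor VGLL1, which are listed with the targets. The targets CCN2, ANKRD1, AMOTL2, LATS2 and AJUBA had no called difference. The cell cycle lists had negative medians in both lines. All 50 genes of G2 phase and mitosis fell in HSC-3 and 37 in CAL27 cells, with medians of -1.18 and -0.48 and 29 called negative differences. All 46 genes of G1/S and DNA replication fell in HSC-3 cells, while 24 fell and 1 rose in CAL27 cells. Their medians were -1.01 and -0.34, with 27 called negative differences. Of all tested probesets 23.6% fell in HSC-3 and 5.90% in CAL27 cells, and 5.14% had a called negative difference. A difference was called for 1 of 10 genes of the cornified envelope, 1 of 15 of the Notch pathway and 1 of 17 of MHC class I, counts too small to be set apart from the 11.6% of all tested probesets.

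**Figure D5:**
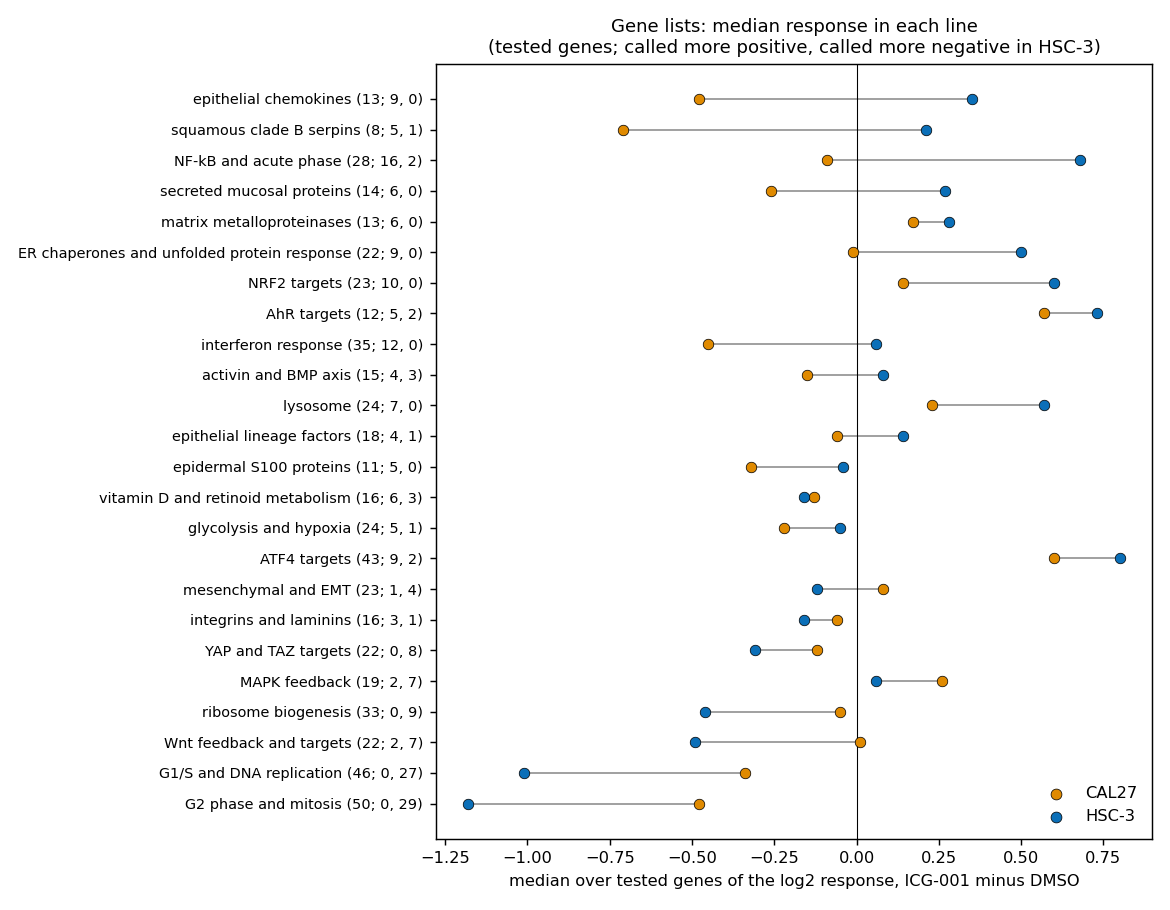
Median log2 response to ICG-001 over the tested genes of each list (x axis) in CAL27 and HSC-3 cells (points), with the number of tested genes and of called positive and negative differences beside the list's name, for lists with at least 8 tested genes and 4 calls. Chemokines lie at 0.35 in HSC-3 and -0.48 in CAL27 cells, and G2 phase and mitosis at -1.18 and -0.48.

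The classes rest on thresholds and on single arrays to unlike degrees. The gene of opposite direction closest to the limit was ZFP57, with an adjusted p of 0.049 in CAL27 cells, and ZBTB40 lay just outside it with 0.050. In the HSC-3 only class the CAL27 interval of SLC16A13 reached 0.583 and that of DPF3, just outside, 0.586, where the limit was 0.585. When each array was left out in turn, 143 of the 147 differences of opposite direction were called each time, and 59 of the 147 genes kept their class each time. Of the 764 HSC-3 only genes 430 kept their class and 555 their call, and of the 69 CAL27 only genes 11 and 45. The count of opposite directions was 83 without CAL27 DMSO replicate 2 and 93, 89 and 84 without CAL27 ICG-001 replicates 1, 2 and 3, and that of CAL27 only genes was 42 and 30 without CAL27 DMSO replicates 1 and 2 and 30, 36 and 27 without CAL27 ICG-001 replicates 1, 2 and 3. AGR2, S100A7, S100A8, SERPINB13, SAA2, CCL20, CXCL8, TRIM22, NT5E, ROR1, NOG, KCNQ5, AKAP12 and SPRY4 kept opposite directions in the 12 fits. MIR23B left the HSC-3 only class without CAL27 DMSO replicate 2, MIR24-1 without CAL27 DMSO replicates 1 or 2 or CAL27 ICG-001 replicate 2, MUC1 without CAL27 DMSO replicates 2 or 3 or CAL27 ICG-001 replicate 1, and IL24, MIR27B, MIR21, MIR224, MFAP5, AKR1B10 and KCNQ5-IT1 without 4 or 5 CAL27 arrays. The differences of these 10 genes were called in the 12 fits.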

How the data were processed

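Total RNA of CAL27 and HSC-3 cells was hybridized to Affymetrix Human Gene 2.0 ST arrays. The authors deposited log2 values made by robust multi-array average (RMA) with affy 1.36.1 in R 2.15.1, per the labels, with a custom probeset definition that gives 1 probeset per Entrez gene. The 12 arrays were normalized as 1 set, and 6 siRNA arrays, from another set, were not used here. The genome build was not stated in these sources, so array results carry no coordinates of their own, and sequences are RefSeq GRCh38.p14. Of 23786 probesets, 22458 matched 1 symbol. Depth does not apply to arrays, and the number of arrays limits the precision.

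Values were used as deposited and fitted with limma 3.58.1 in R 4.3.3. All probesets entered the fit and its variance prior, and Benjamini-Hochberg adjustment covered the 13493 probesets whose value exceeded an array's median at least 1 time. Each line was fitted on its 6 arrays, and the difference and the gaps between lines on all 12. With 3 arrays against 3, an exact permutation test of a single gene cannot go below p = 0.1, so tests come from fits across all probesets. The fitting was tested on simulated data. The members and gene lists were chosen with earlier results of these data known. Of 919 list entries 865 were found in the table.

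Genes were named by a rule: the 12 largest differences in each direction with arrays apart in at least 1 line, the 8 genes of opposite direction each way with the largest smaller response, the 8 highest and 8 lowest in each class of 1 line, the 6 largest in each class of the same direction, up to 4 genes per list by adjusted p, and genes the study names. Others, among them SAA1, TNIP3, KITLG, TLR3, FERMT2, CXCL3, PTX3 and the genes that span microRNAs, were chosen after their values were seen. Alternatives covered the filter, the variance prior, the normalization, array weights, the replicate block, the thresholds and leaving out each array.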

Additional observations from a re-analysis of the deposited data

Results flagged for a closer look

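The differences below are flagged because the response to ICG-001 differed between the lines in a test of the difference itself (limma, 12 arrays), and they are the 12 largest in each direction with arrays apart in at least 1 line. More positive in HSC-3 cells were AGR2 at 4.73, S100A7A at 4.51, SERPINB13 at 4.09, SAA2 at 4.01, AKR1C2 at 3.83, MIR378D2 at 3.64, S100A7 at 3.62, SERPINB3 at 3.26, MIR24-1 at 3.21, MIR23B at 3.21, SERPINB4 at 3.18 and PIP at 3.10 on the log2 scale. More negative were OLFML3, an olfactomedin-like matrix protein, at -2.35, KCNQ5-IT1 at -2.19, NT5E at -2.19, AKAP12 at -2.18, MFAP5 at -2.13, ROR1 at -2.12, VGLL1, a cofactor of TEAD factors, at -2.11, KCNQ5 at -2.07, TMEM71 at -2.03, DPF3, a subunit of chromatin remodelers, at -1.94, EFEMP1 at -1.94 and ADD2 at -1.92. The 2 lists are not alike in class: AGR2, S100A7A, SERPINB13, SAA2, MIR378D2 and S100A7 took opposite directions, as did NT5E, AKAP12, ROR1 and KCNQ5. The probes of S100A7 and S100A7A, of SERPINB3 and SERPINB4, and of MIR24-1 and MIR24-2 may be shared, so these are not separate observations.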

How the results depend on the processing

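The counts depend on the single-line test more than on the difference. With a trended, robust variance prior the genes of opposite direction numbered 248, with array weights 234, with 1 fit over the 12 arrays for both lines 247, and with a call demanded in each line 32, against 147. Of these, 146, 145 and 144 of the 147 were shared under the prior, the weights and the single fit. A limit of 1.3-fold on the other line left 432 HSC-3 only and 41 CAL27 only genes, against 764 and 69. Leaving out 1 array gave 83 to 142 genes of opposite direction, 612 to 828 HSC-3 only, 27 to 62 CAL27 only, 157 to 272 calls in CAL27 cells without a CAL27 array, 2115 to 2281 in HSC-3 cells without an HSC-3 array, 732 to 894 more positive and 539 to 694 more negative differences. The cause of these shifts was not tested, beyond the smaller number of arrays.

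Deviations of same-numbered DMSO and ICG-001 arrays correlated at r of 0.18, 0.028 and 0.11 in CAL27 and 0.047, -0.019 and -0.009 in HSC-3 cells. Arrays of different number gave r between -0.151 and 0.058 in CAL27 and between -0.047 and 0.056 in HSC-3 cells. The HSC-3 values thus lay within that range, while 0.18 and 0.11 in CAL27 cells lay above it. Whether the numbers pair the CAL27 samples is not settled by these values, and the main fits used no pairing. With the replicate number as a block the CAL27 only genes numbered 31 and the calls in CAL27 cells 153, against 69 and 453, and the more positive and more negative differences 673 and 502, with 115 genes of opposite direction. A variance prior from the tested probesets, chosen after seeing the data, gave 921 and 729, with 205 of opposite direction. Of 176 named genes with a called difference, 154 kept the call in 20 settings and 4 (CLGN, ACAA2, DIO2 and DHRS9) in the 18 or 19 in which they passed the filter, while 18 lost it in some. The sign differed between settings for 0 of the 176, and for 2 named genes with no called difference, KRT14 (-0.23 to 0.02) and SOX10 (-0.09 to 0.18). Signal near the bottom of the range limits the CAL27 only class, since a fall in HSC-3 cells could not be seen there.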
